A study of Mus musculus with 16 samples.

Results

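The Polycomb complex genes described here are 10 mouse genes, chosen by name: Ezh2, Ezh1, Eed and Suz12 of the catalytic core of Polycomb repressive complex 2, its accessory subunits Jarid2 and Mtf2, and Cbx2, Cbx7, Rnf2 and Bmi1 of Polycomb repressive complex 1. They are 10 of the 28095 gene names on the array and are represented by 21 probes. The study asked how closely induced pluripotent stem (iPS) cells made with a human artificial chromosome resemble embryonic stem (ES) cells, and it profiled 16 samples, each on 1 single-colour mouse expression array.

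Polycomb repressive complex 2 places methyl groups on lysine 27 of histone H3 through Ezh2 or Ezh1, and it needs Eed and Suz12 to be stable and active. Polycomb repressive complex 1 contains the ubiquitin ligase Rnf2 with a PCGF protein such as Bmi1, and in its canonical form a CBX protein reads the methyl mark. In ES cells these complexes cover the promoters of silent developmental regulators, Cbx7 is known as the leading CBX protein, and other CBX proteins such as Cbx2 are known to take its place as cells leave pluripotency.

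One sample was of mouse embryonic fibroblasts (MEF), the cells that were reprogrammed, of C57BL/6 background. ES cells had 2 samples, the line B6ES (C57BL/6) and the line TT2 (C57BL/6 x CBA). The sample 20D17 was an iPS line made by retroviral transduction, from C57BL/6 x DBA. The 4 iHAC1-iPS samples (1-A3, 1-B, 1-C3 and 1-D6) were clones of C57BL/6 MEFs that carried iHAC1, an artificial chromosome with 2 copies each of Klf4, c-Myc, Sox2 and Oct4 driven by the ubiquitous CAG promoter. The 4 iHAC2-iPS samples (2-B1, 2-C6, 2-E and 2-N) carried iHAC2, which adds 2 further copies of Oct4 and a short hairpin RNA against p53. By the paper's account, the MEFs that received iHAC1 or iHAC2 were also transfected with microRNA mimics during reprogramming. The 4 iHAC-free iPS samples, F-B1 and F-C5 with F-E4 and F-N7, were cells that had lost iHAC2, each sorted from the iHAC2 line of the same letter. Each sample is 1 line or clone, the iPS and ES cells were grown on MEF feeder layers, and p-values measure only the spread between these lines. In such bulk RNA, fewer cells that express a gene and less RNA per cell cannot be told apart.

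Levels are log2 of the processed intensity minus the 75th percentile of the array, so that 0 is the 75th percentile, and a level of 1 probe was never set against that of another. The share of spots well above background ran from 54.2% to 65.8% over the arrays, and no spot was saturated. A probe was tested if it was well above background on at least 1 array (31415 of 41174 probes), and it was called if limma's adjusted p was under 0.05 and the difference at least 2-fold. Of the 21 member probes 19 were tested, covering all 10 genes, and 16 were well above background on all 16 arrays. The other two, 1 of Eed and 1 of Jarid2, were not well above background on any array. The MEF, ES, 20D17 and iHAC1-iPS arrays were read with 1 version of the scanner's extraction software and the iHAC2-iPS and iHAC-free arrays with another. The versions are called scan sessions here, and dates of scanning were not used. For comparisons across the sessions the session and the group cannot be told apart.

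Against ES cells, probes of these genes were called often in iHAC1-iPS cells, and none was called in iHAC-free iPS cells, where few of all probes were. In iHAC1-iPS cells 10 of the 19 probes were called against ES cells, 2 higher and 8 lower, where 14.3% of all tested probes were called (7.17% higher and 7.13% lower). The higher probes were both of Bmi1, and the lower probes were those of Cbx7, Eed, Jarid2 and 3 of the 4 of Mtf2. In iHAC2-iPS cells 2 probes were called, both annotated to Eed and both lower, against 6.80% of all probes, and 1 of them faces the strand opposite Eed, as does 1 of the 8 lower probes in iHAC1-iPS cells. In iHAC-free iPS cells no member probe was called by limma, 4 had an unadjusted p under 0.05, and 0.363% of all probes were called. At that share the absence of calls says little of these genes. The median difference from ES cells over the 19 probes was -0.74 log2 in iHAC1-iPS cells, -0.22 in iHAC2-iPS cells and -0.10 in iHAC-free cells, where the median over all tested probes was 0.04, 0.06 and 0.03.

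**Figure D1:**
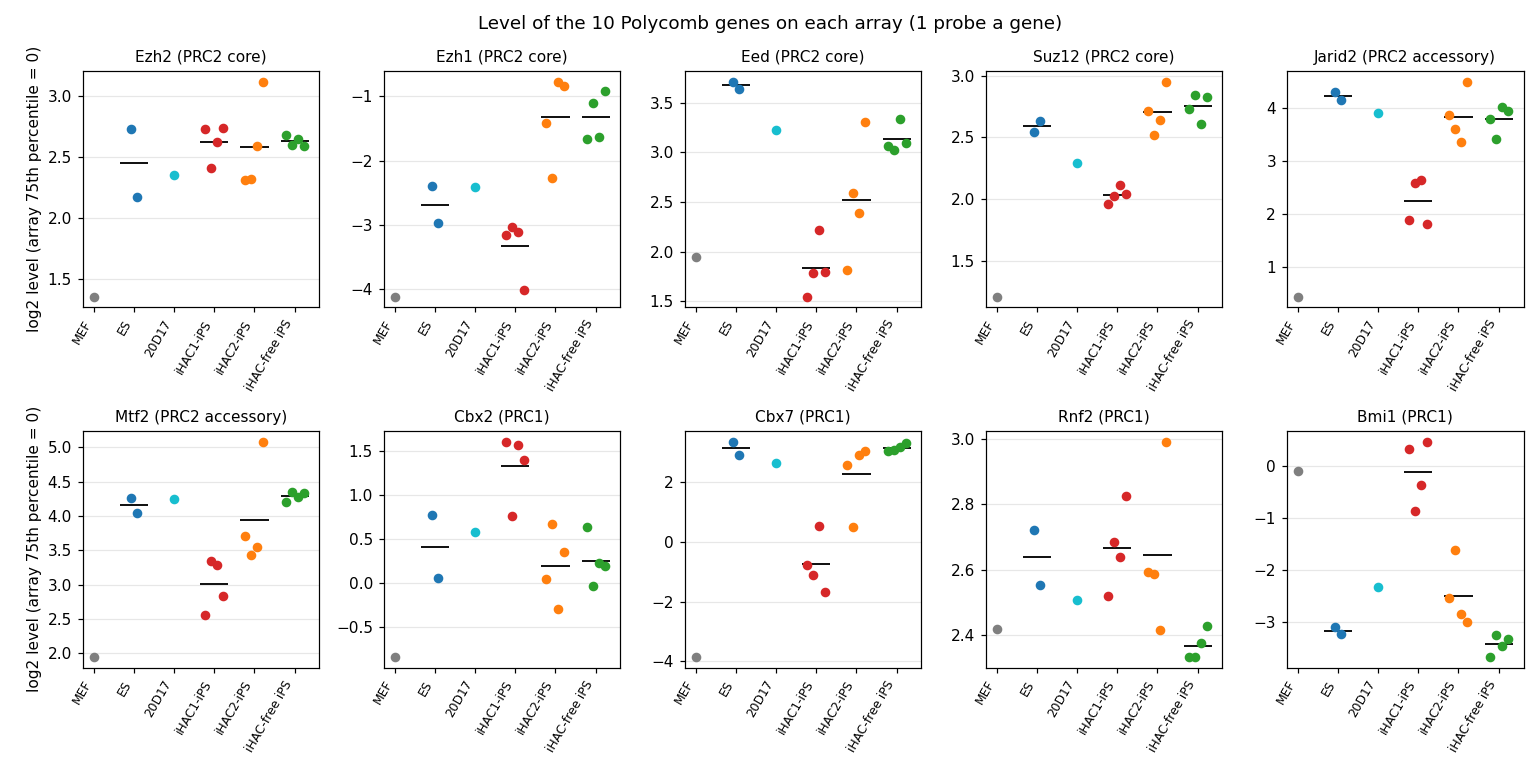
Level of each Polycomb gene on each of the 16 arrays (log2, 0 is the array's 75th percentile, 1 probe a gene, the one with the highest mean); points are samples and bars are group means. The iHAC1-iPS clones lie below both ES lines for Eed, Suz12, Jarid2, Mtf2 and Cbx7 and narrowly so for Ezh1, above them for Bmi1, and overlap them for Ezh2, Cbx2 and Rnf2.

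The probes were 60-base oligonucleotides, and 4 of them are shown because they identify the transcript stretch behind a result: those of Eed, Mtf2 and Bmi1 carry calls, and that of Ezh2 carries none. The Ezh2, Eed and Mtf2 probes shown span more of the genome than their 60 bases (896, 2910 and 1686 bases in mm9), so each lies across at least 1 intron and reads spliced RNA. Their places are chr6:47482047-47482942 on the minus strand for Ezh2, chr7:97113321-97116230 on the minus strand for Eed, chr5:108528171-108529856 on the plus strand for Mtf2 and chr2:18605306-18605365 on the plus strand for Bmi1.
Ezh2: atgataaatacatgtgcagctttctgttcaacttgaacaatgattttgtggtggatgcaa
Eed: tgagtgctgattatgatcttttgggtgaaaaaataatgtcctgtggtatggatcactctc
Mtf2: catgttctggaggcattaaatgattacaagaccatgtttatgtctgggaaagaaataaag
Bmi1: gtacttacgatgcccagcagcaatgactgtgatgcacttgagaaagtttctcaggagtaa

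Ezh2, the main H3K27 methyltransferase of dividing cells, showed no called difference between any kind of iPS cell and ES cells. Its level was 1.35 in MEFs, 2.72 in B6ES, 2.17 in TT2 and 2.35 in 20D17. It was 2.72, 2.41, 2.62 and 2.73 in the iHAC1-iPS clones, 2.31, 2.32, 2.59 and 3.12 in the iHAC2-iPS clones and 2.68, 2.598, 2.65 and 2.59 in the iHAC-free lines. The iPS groups overlapped the ES lines and each other, and the MEF array was lowest. The difference from ES cells was 0.18 ± 0.23 log2 (SE) in iHAC1-iPS cells, with a 95% confidence interval of -0.33 to 0.68 and adjusted p = 0.636. Ezh2 was not called in any of the 6 comparisons.

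Ezh1, the second methyltransferase, which is known from non-dividing tissues, did not follow Ezh2. Its level was -4.11 in MEFs, -2.40 and -2.98 in the ES lines B6ES and TT2, and -2.41 in 20D17. In iHAC1-iPS clones it was -3.16, -3.03, -3.12 and -4.02, in iHAC2-iPS clones -1.42, -2.26, -0.77 and -0.84, and in iHAC-free lines -1.67, -1.10, -1.64 and -0.91. All iHAC1-iPS clones were thus below all iHAC2-iPS and iHAC-free samples, and both ES lines lay between. The difference was -2.004 ± 0.34 against iHAC2-iPS (adjusted p = 0.0012) and -1.998 ± 0.34 against iHAC-free cells (adjusted p = 0.001), both across scan sessions. Against ES cells, of the same session as the iHAC1-iPS clones, it was -0.64 ± 0.42 and not called (adjusted p = 0.310). The iHAC2-iPS and iHAC-free cells were 1.36 ± 0.42 above ES cells in each case, which did not pass (adjusted p = 0.054 and 0.119).

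Eed, the subunit that binds the methyl mark and stimulates the enzyme, was low in iHAC1-iPS cells and partly low in iHAC2-iPS cells. The spliced-RNA probe printed above gave 1.95 in MEFs, 3.71 and 3.64 in B6ES and TT2 and 3.22 in 20D17. It gave 1.55, 1.78, 2.21 and 1.80 in iHAC1-iPS clones, 1.81, 2.59, 2.39 and 3.30 in iHAC2-iPS clones and 3.07, 3.03, 3.33 and 3.095 in iHAC-free lines. No iPS sample reached the ES lines, 3 of the 4 iHAC1-iPS clones were below the MEF array, and the iHAC2-iPS clones were spread from below the MEF level (2-B1) to within the iHAC-free range (2-N). iHAC1-iPS cells were 3.58-fold below ES cells (-1.84 ± 0.32 log2, adjusted p = 0.0022) and 2.45-fold below iHAC-free cells (adjusted p = 0.0024). iHAC2-iPS cells were 2.23-fold below ES cells (-1.15 ± 0.32, adjusted p = 0.038), a call lost without either ES line, without 2-B1 or 2-E, and in a fit of the compared groups alone. The iHAC-free lines were 0.55 ± 0.32 log2 below ES cells, which was not called (adjusted p = 0.348).

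A second tested Eed probe moved in the same direction but does not read the same RNA. Its file coordinates, chr7:97129435-97129494 in mm9, run on the plus strand, while Eed lies on the minus strand. In the RefSeq window around the Eed start (GRCm38.p6), the complement of 58 of its 60 bases lay from 8 bases before the start to the end of the window, 50 bases after it, so that it reads RNA of the strand opposite Eed at the Eed start. It was lower than in ES cells in iHAC1-iPS cells (-1.47 ± 0.25, adjusted p = 0.002) and in iHAC2-iPS cells (-1.08 ± 0.25, adjusted p = 0.022). Over the 16 arrays it followed the spliced Eed probe with r = 0.91. It was dim, with 15 of 16 arrays well above background, and neither call held with normexp background correction. The iHAC1-iPS call was also lost with the slide as a block, and the iHAC2-iPS call without either ES line, without 2-B1 and in a fit of the compared groups alone.

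Suz12, the scaffold of the complex, fell by less than Eed. The brighter of its 2 probes gave 1.21 in MEFs, 2.54 and 2.63 in B6ES and TT2, and 2.29 in 20D17. The iHAC1-iPS clones gave 1.96, 2.02, 2.11 and 2.04, the iHAC2-iPS clones 2.71, 2.52, 2.64 and 2.95, and the iHAC-free lines 2.73, 2.84, 2.605 and 2.83. The iHAC1-iPS clones lay within 0.15 log2 of each other and below every ES, iHAC2-iPS and iHAC-free sample. The difference from ES cells had an adjusted p of 0.020 but was 1.47-fold, under the 2-fold limit, so it was not called. The second probe was called 2.16-fold lower than in iHAC2-iPS cells (adjusted p = 0.00027) and 2.38-fold lower than in iHAC-free cells (adjusted p = 9.6e-05), across scan sessions, with both calls lost under normexp correction, and its 1.68-fold difference from ES cells was not called. With the slide as a block, where 1-D6 alone meets the ES lines, that difference was -1.04 and called (adjusted p = 0.029).

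Jarid2, which helps to bring the complex to chromatin, had the largest reduction against ES cells among the subunits of complex 2. Its brighter probe gave 0.44 in MEFs, 4.30 and 4.16 in B6ES and TT2 and 3.92 in 20D17. In iHAC1-iPS clones the levels were 1.89, 2.59, 2.65 and 1.81, in iHAC2-iPS clones 3.86, 3.61, 3.36 and 4.504 and in iHAC-free lines 3.79, 3.42, 4.01 and 3.94. The iHAC1-iPS clones did not overlap any other group and fell between MEFs and ES cells. The difference from ES cells was -1.997 ± 0.33 on this probe (3.99-fold, adjusted p = 0.0018) and -2.35 ± 0.49 on the second (5.11-fold, adjusted p = 0.006), the latter lost without B6ES. Both probes were also called lower against iHAC2-iPS cells (3.03-fold and 3.49-fold) and against iHAC-free cells (2.94-fold and 4.31-fold).

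Mtf2, a Tudor domain protein that ties the complex to CpG-rich DNA, was measured by 4 probes that agreed over the 16 arrays (r from 0.92 to 1.00). The probe printed above gave 1.07 in MEFs, 3.27 and 3.18 in B6ES and TT2 and 3.27 in 20D17. It gave 1.42, 1.97, 2.31 and 1.44 in iHAC1-iPS clones, 2.40, 2.83, 2.37 and 3.98 in iHAC2-iPS clones and 3.34, 3.22, 3.50 and 3.38 in iHAC-free lines. The iHAC1-iPS clones lay below all others but the MEF array, and among the iHAC2-iPS clones 2-N stood above the rest. The printed probe was called 2.71-fold lower than in ES cells, and another 2 were called 2.73-fold and 2.74-fold lower (adjusted p from 0.019 to 0.026), while the brightest, 2.22-fold lower, was not called (adjusted p = 0.054). All 4 were called against iHAC-free cells, from 2.44-fold to 3.19-fold. The 3 calls against ES cells were lost without either ES line and with the slide as a block, and those of the printed probe and of the probe at 2.74-fold also without 1-A3 or 1-D6.

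**Figure D2:**
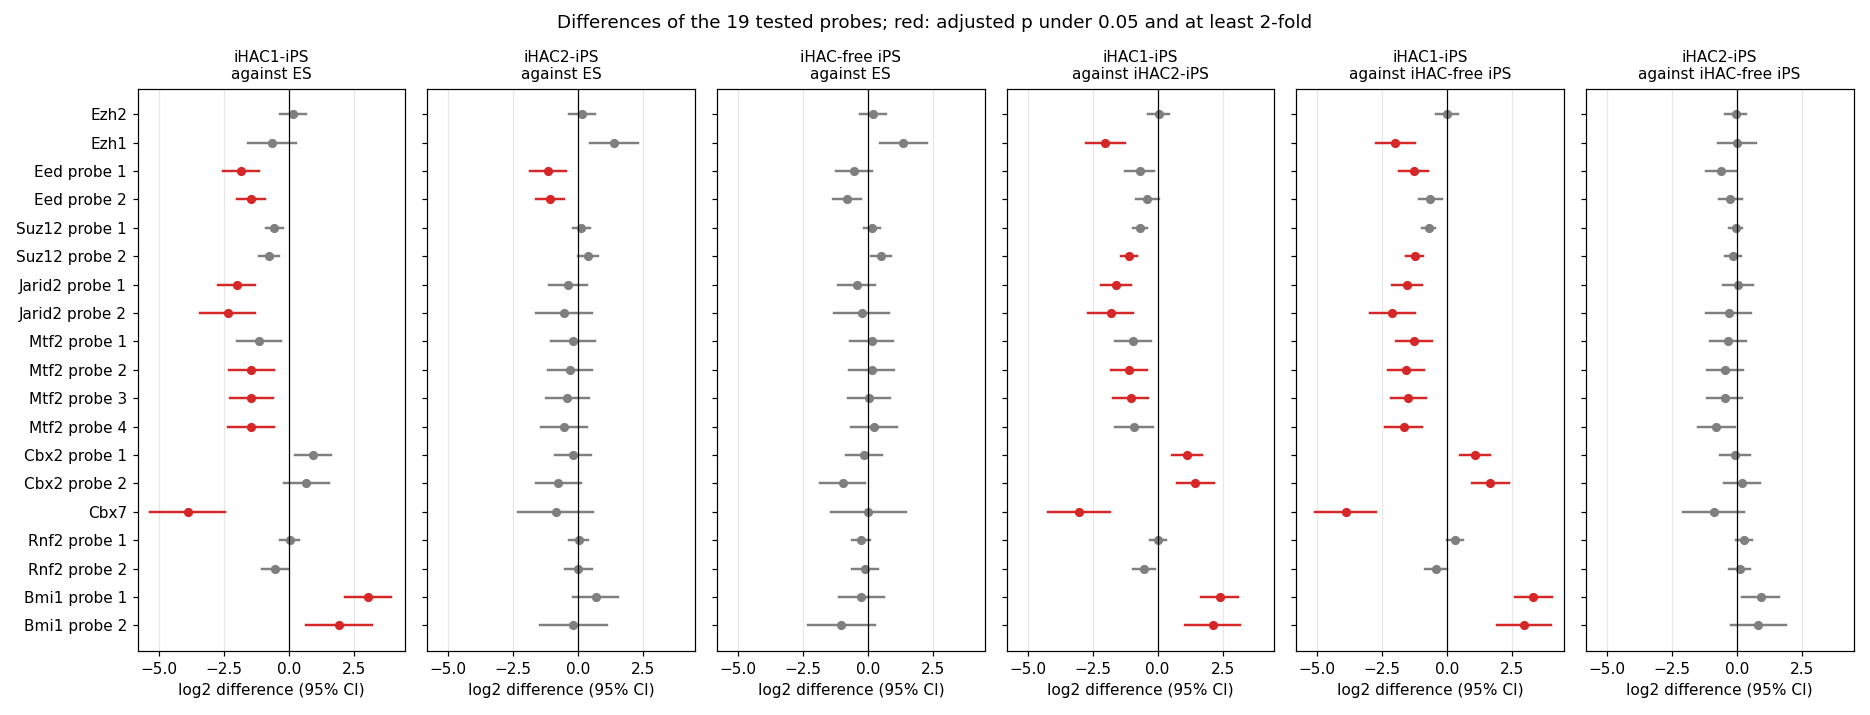
Log2 difference of each of the 19 tested probes in the 6 comparisons, with the 95% confidence interval of the limma fit; red marks probes called (adjusted p under 0.05 and at least 2-fold), grey the rest, and probe 1 of a gene is its brightest. Calls are frequent in the comparisons that hold iHAC1-iPS cells, and iHAC2-iPS and iHAC-free cells show none against each other.

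Cbx7, the CBX protein known to dominate in ES cells, had the widest range of the 10 genes, 7.21 log2 over the arrays. Its probe (chr15:79746268-79746327, mm9, minus strand) gave -3.84 in MEFs, 3.36 and 2.93 in B6ES and TT2, and 2.65 in 20D17. In iHAC1-iPS clones it gave -0.75, -1.09, 0.54 and -1.68, in iHAC2-iPS clones 2.58, 0.52, 2.91 and 3.07 and in iHAC-free lines 3.05, 3.09, 3.19 and 3.31. The iHAC1-iPS clones lay well below ES and iHAC-free cells and well above the MEF array, and the iHAC2-iPS clone 2-C6 fell at the level of the iHAC1-iPS clone 1-C3. iHAC1-iPS cells were 14.9-fold below ES cells (-3.89 ± 0.67, adjusted p = 0.0022), 8.09-fold below iHAC2-iPS cells (adjusted p = 0.0016) and 15.0-fold below iHAC-free cells (-3.90 ± 0.54, adjusted p = 0.00029). The iHAC-free lines differed from ES cells by 0.01 ± 0.67 log2, with a 95% confidence interval of -1.44 to 1.46.

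Bmi1, the PCGF protein first known as an oncogene that represses the Ink4a/Arf locus, ran the opposite way. Its brighter probe (chr2:18607987-18608046, mm9, plus strand) gave -0.09 in MEFs, -3.10 and -3.23 in B6ES and TT2 and -2.33 in 20D17. It gave 0.32, -0.86, -0.37 and 0.47 in iHAC1-iPS clones, -2.54, -1.62, -2.84 and -2.999 in iHAC2-iPS clones and -3.66, -3.24, -3.45 and -3.32 in iHAC-free lines. The iHAC1-iPS clones surrounded the MEF value and overlapped no other group, and 2-C6 was the highest of the iHAC2-iPS clones. iHAC1-iPS cells were 8.30-fold above ES cells (3.05 ± 0.40, adjusted p = 0.00048) and 9.91-fold above iHAC-free cells (3.31 ± 0.33, adjusted p = 4e-05). The probe printed above, well above background on 11 arrays, was 3.81-fold higher than in ES cells (adjusted p = 0.036), a call lost with normexp correction, with the slide as a block, or without either ES line, 1-A3 or 1-D6. On that probe the iHAC1-iPS clones, at -2.52, -3.71, -3.09 and -2.24, all lay below the MEF value of -2.18.

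The RefSeq windows upstream of the starts of Cbx7 and Bmi1, the members with the largest fall and rise, are shown to give the sequence context of both genes. The 250 bases before the start lie at chr15:79932647-79932896 on the minus strand for Cbx7 and at chr2:18676768-18677017 on the plus strand for Bmi1 (GRCm38.p6), and capitals mark the E-box letters CACGTG, the word bound by Myc and related factors.
Cbx7: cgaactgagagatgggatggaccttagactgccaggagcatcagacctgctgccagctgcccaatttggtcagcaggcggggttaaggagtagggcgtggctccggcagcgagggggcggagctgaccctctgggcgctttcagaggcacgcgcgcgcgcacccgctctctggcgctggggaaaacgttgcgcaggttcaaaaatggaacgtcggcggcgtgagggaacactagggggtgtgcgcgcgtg
Bmi1: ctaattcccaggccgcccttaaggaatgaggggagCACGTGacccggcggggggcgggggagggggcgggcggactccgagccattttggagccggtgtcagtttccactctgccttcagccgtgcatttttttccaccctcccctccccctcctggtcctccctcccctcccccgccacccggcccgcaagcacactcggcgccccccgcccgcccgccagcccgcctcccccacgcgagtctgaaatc

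The RefSeq table held 11 windows of 300 bases for 9 of the 10 genes, with none for Cbx2. The E-box was in 1 of the 11 windows, that of Bmi1, and in 7.15% of all 32851 windows of the table, searched on both strands. An E2F word (TTTCCCGC, TTTGGCGC, TTTCGCGC or TTTGCCGC) was in 2, those of Ezh2 and Suz12, and in 2.26% of all windows. The letters GGGCGG of the GC box were in 7 of the 11 and in 35.7% of all windows. None held the ETS word CCGGAAGT or the octamer ATGCAAAT, which were in 3.89% and 1.74% of all windows. The member windows were rich in CpG, with 9 of 11 above the upper quartile of all windows (20 CpG), 33 for Cbx7 and 23 for Bmi1. These are matches of letters and not known sites.

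Cbx2, a CBX protein known to gain weight as cells differentiate, was highest in iHAC1-iPS cells. Its brighter probe gave -0.84 in MEFs, 0.77 and 0.06 in B6ES and TT2, and 0.58 in 20D17. It gave 1.61, 0.76, 1.58 and 1.40 in iHAC1-iPS clones, 0.05, 0.67, -0.29 and 0.36 in iHAC2-iPS clones and 0.64, -0.03, 0.23 and 0.19 in iHAC-free lines. The iHAC1-iPS clones were above all iHAC2-iPS and iHAC-free samples, and 1-B lay just under B6ES. The probe was 2.20-fold above iHAC2-iPS cells (1.14 ± 0.26, adjusted p = 0.0059) and 2.12-fold above iHAC-free cells (1.08 ± 0.26, adjusted p = 0.007), across scan sessions. Its 0.92 ± 0.32 above ES cells was not called (adjusted p = 0.060). The dimmer probe was called in the same comparisons, at least 2.45-fold above iHAC2-iPS cells, where none of the 4 arrays rose well above background, and 3.15-fold above iHAC-free cells, where only 2 of the 4 arrays did so. With normexp correction the calls of the dimmer probe and that of the brighter one against iHAC-free cells were lost. The call of the brighter probe against iHAC-free cells was also lost without 1-A3 or F-C5, and its call against iHAC2-iPS cells without 2-E.

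Rnf2, the catalytic subunit of complex 1, varied least. Its brighter probe had the narrowest range of the 10 genes, from 2.33 in F-B1 to 2.99 in 2-N, with 2.42 in MEFs, 2.72 in B6ES and 2.55 in TT2. The difference between iHAC1-iPS and ES cells was 0.03 ± 0.17 log2, with a 95% confidence interval of -0.33 to 0.39. Neither probe of Rnf2 was called in any comparison. The second probe ran differently (r = 0.19 between them), with 0.53 ± 0.23 below ES cells in iHAC1-iPS cells (adjusted p = 0.133).

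Between the kinds of iPS cell, the contrast lay with iHAC1-iPS cells. Against iHAC2-iPS cells 11 of the 19 probes were called, 4 higher (Bmi1 and Cbx2) and 7 lower (Ezh1, the dimmer Suz12 probe, Jarid2, some Mtf2 probes and Cbx7), where 20.0% of all probes were called, 8.98% higher and 11.0% lower. The Mtf2 calls did not include its brightest probe. They were lost without 1-A3, 1-D6 or 2-N and in a fit of the compared groups alone. Against iHAC-free cells 14 were called, 4 higher and 10 lower, of the same genes with Eed added, where 20.1% of all probes were called, 9.0% higher and 11.1% lower. These comparisons share the iHAC1-iPS arrays and both cross the scan sessions.

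Loss of the artificial chromosome, which compares iHAC2-iPS cells with the iHAC-free lines sorted from them within 1 scan session, changed no member probe past the threshold. limma called 0 of 19 member probes, 3 had an unadjusted p under 0.05, and 0.818% of all probes were called, so that the absence of calls says little of these genes. Bmi1 was higher with iHAC2 in all 4 lines, by 1.12, 1.63, 0.61 and 0.32 log2 in lines B, C, E and N (0.92 ± 0.33 in the fit, adjusted p = 0.179), on its brighter probe. The dimmer Bmi1 probe differed by 0.14, 2.68, 1.08 and -0.58, with line N the other way. Cbx7 was lower with iHAC2 in all 4 lines, by -0.46, -2.56, -0.28 and -0.24 log2, and line C held most of its mean of -0.89 ± 0.54 (adjusted p = 0.408). The brighter Rnf2 probe was also higher in all 4 lines (0.26, 0.25, 0.04 and 0.56). The dimmer Suz12 probe was lower in all 4 (-0.36, -0.16, -0.01 and -0.05). How many of all probes kept the same sign in the 4 lines was not counted, so that these signs say little of the members. Eed was lower in lines B, C and E (-1.25, -0.44 and -0.94) and higher in line N (0.21). Within slides, where 2 lines share a slide, Bmi1 differed by 1.12 and 0.72 on its brighter probe and by 1.88 and -0.22 on its dimmer one, and Cbx7 by -1.42 and -0.35. The SD of the iHAC2-iPS clones was 1.18 against 0.12 in the iHAC-free lines for Cbx7, 0.77 against 0.07 for the brightest Mtf2 probe and 0.62 against 0.14 for Eed. Without 2-C6 that of Cbx7 was 0.25, without 2-N that of Mtf2 was 0.14 and that of Eed 0.40. The SDs lay closer together for Suz12 (0.18 against 0.11), Cbx2 (0.41 against 0.28) and Ezh1 (0.69 against 0.38) on their brightest probes. Clone 2-N had the highest iHAC2-iPS level for 7 of the 10 genes, and 2-C6 the lowest for 4. Neither the SDs nor these counts were set against all probes, so whether they are particular to these genes was not tested.

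The MEF and 20D17 arrays show where these levels started and what a retroviral line reached, as single arrays with no test. In MEFs 17 of the 19 probes were at least 2-fold from the ES mean, 2 higher (Bmi1) and 15 lower, where 42.0% of all probes were that far. Cbx7 was 127-fold lower in MEFs than the ES mean, Jarid2 13.9-fold, Mtf2 4.62-fold and Eed 3.31-fold, and Bmi1 was 8.44-fold higher. In 20D17 none of the 19 probes was 2-fold from the ES mean, where 10.8% of all probes were, and the largest difference was 0.84 log2 for Bmi1.

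The place of each gene between MEFs and ES cells was then expressed as a percentage of the log2 distance from the MEF array to the ES mean, for the 17 probes at least 2-fold apart. The MEF array shared a slide with 1-A3, 1-B and 1-C3, and both ES lines shared another with 20D17 and 1-D6. The ends of the scale thus differ in slide as well as in cell type, and these cannot be told apart. In iHAC1-iPS cells the members spread over the whole scale. Bmi1 was at 0.77% ± 20.1 (SD, n = 4) and Eed at -6.50% ± 16.02 of the way on their brighter probes, while the dimmer Bmi1 probe was at 26.8% ± 24.8 and the opposite-strand probe at Eed at 18.2% ± 11.02. Mtf2 (48.0% ± 17.1), Jarid2 (47.4% ± 11.7), Cbx7 (44.3% ± 13.4) and Suz12 (59.7% ± 4.5) were about midway on their brightest probes, and the other Mtf2 probes were lower, at 28.7%, 33.2% and 34.3%. Ezh2 was at 116% ± 13.9 and Cbx2 at 174% ± 31.4, at and past the ES level. The median over the 17 probes was 44.3%, and over all 13168 probes so far apart it was 62.6%, with quartiles of 30.8% and 89.7%. In iHAC2-iPS cells the member median was 86.2% and in iHAC-free cells 106%, where the median over all such probes was 87.4% and 89.9%. On the brightest probe of each gene, Eed fell furthest short of the ES level in both, at 33.2% ± 35.6 with iHAC2 and 68.4% ± 7.9 without it. Furthest beyond the ES level in both was Ezh1, at 196% ± 48.5 and 196% ± 26.7, and Ezh2 (113% and 117%) and Suz12 (108% and 112%) also lay beyond it.

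**Figure D3:**
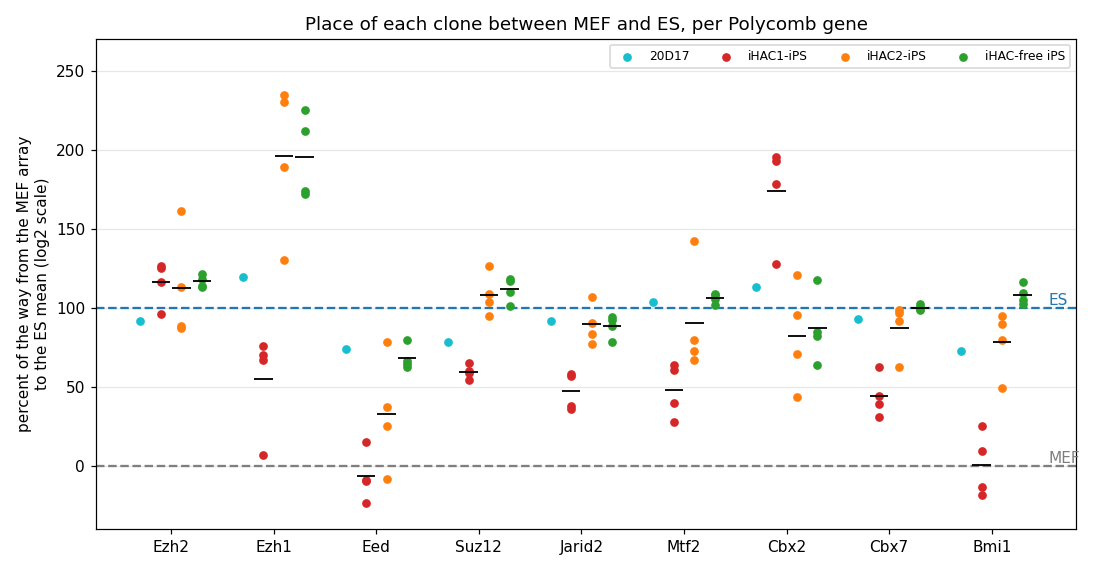
Percent of the log2 distance from the MEF array (0, grey dashed line) to the ES mean (100, blue dashed line) for the 9 genes at least 2-fold apart, 1 probe a gene; points are clones and black bars group means. iHAC1-iPS clones range from the MEF line for Eed and Bmi1 to above the ES line for Cbx2, and iHAC-free lines lie near the ES line for most genes.

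Of the CBX and PCGF genes related to Cbx7 and Bmi1, which stand for them in alternative forms of complex 1, those described here were Cbx6, Cbx8 and 5 PCGF genes. Cbx8 was -0.28, -3.04, -1.74 and -1.35 in iHAC1-iPS clones, -4.57, -3.28, -4.80 and -4.27 in iHAC2-iPS clones and -3.91, -3.86, -3.70 and -4.09 in iHAC-free lines, against -2.93 and -3.61 in ES lines and -0.02 in MEFs. All iHAC1-iPS clones lay above all iHAC2-iPS and iHAC-free samples, and 1-B lay among the ES lines. Cbx8 was called higher against iHAC2-iPS (2.62 ± 0.49, adjusted p = 0.0019) and iHAC-free cells (2.28 ± 0.49, adjusted p = 0.0034), and its 1.67 ± 0.59 above ES cells was not called (adjusted p = 0.066). Cbx6 was not called in any comparison. Among the PCGF genes Bmi1 alone was called in any of the 6 comparisons. Pcgf6, a subunit of a variant complex named here after its values were seen, had an adjusted p of 0.0018 against ES cells in iHAC1-iPS cells but was 0.85 ± 0.14 lower, under 2-fold.

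**Figure D4:**
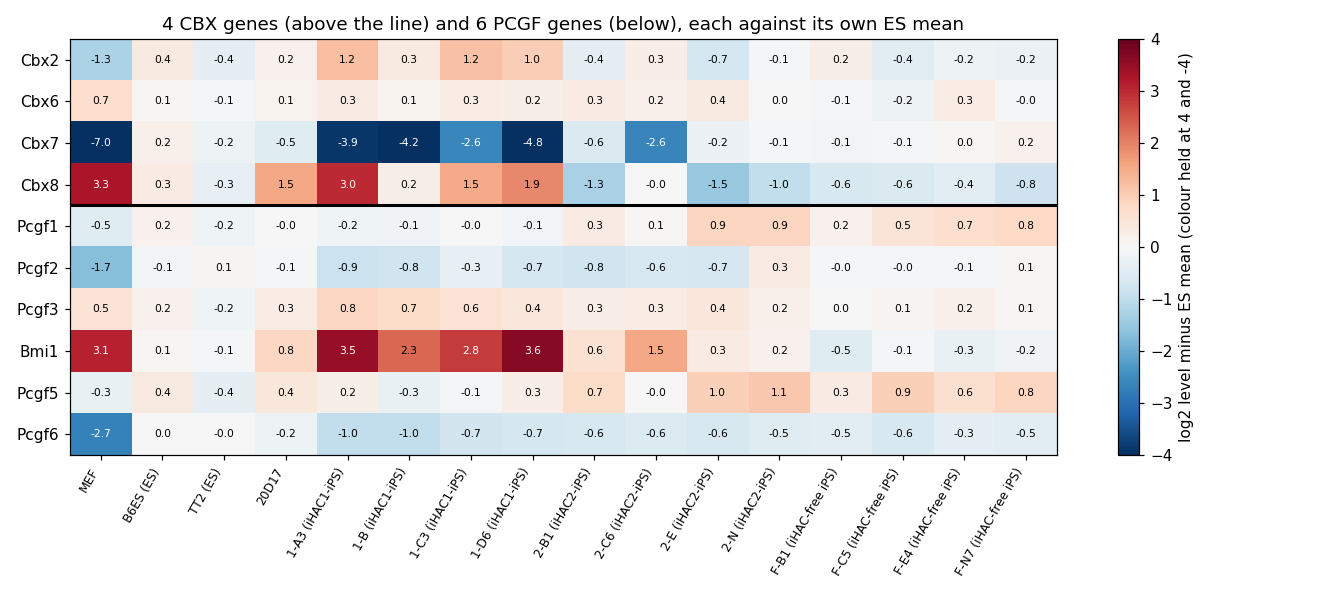
Log2 level of 4 CBX genes (above the black line) and 6 PCGF genes (below it) on each array, minus that gene's own ES mean, 1 probe a gene; colours are held at 4 and -4 and the values are printed. In the iHAC1-iPS columns Cbx7 is low and Bmi1 is high, and the iHAC-free columns stay within 1 log2 of the ES mean.

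The remaining partners were described from fixed lists, with 1 probe a gene, the one with the highest mean. Of 6 partners of complex 2 (Rbbp4, Rbbp7, Aebp2, Phf1, Phf19 and Epop), 2 were called in iHAC1-iPS against ES cells, both lower. Among all probes 14.3% were called there, 7.13% lower. The 2 were Epop (-1.66 ± 0.43, adjusted p = 0.017) and Phf19 (-1.65 ± 0.45, adjusted p = 0.022), a relative of Mtf2. Of 20 partners of complex 1, 4 were called in that comparison, 2 higher and 2 lower, where 14.3% of all probes were called, and the list median was -0.04 log2. The higher ones were the Polyhomeotic protein Phc2 (1.15 ± 0.25) and the Ring-binding protein Yaf2 (1.12 ± 0.29), and the lower ones were Rybp (-1.34 ± 0.26), which is the paralogue of Yaf2, and L3mbtl2 (-1.19 ± 0.22). Phc1 was called lower against iHAC2-iPS (-1.46 ± 0.46) and iHAC-free cells (-1.76 ± 0.46), across scan sessions. The iHAC1-iPS clones were split, at 1.97, 4.60, 4.04 and 2.47 in 1-A3, 1-B, 1-C3 and 1-D6. Clone 1-B lay within the iHAC2-iPS range of 4.59 to 5.07. Against ES cells the Phc1 difference of -1.62 ± 0.56 was not called (adjusted p = 0.060). Against ES cells neither list had a call in iHAC2-iPS or iHAC-free cells by limma, where unadjusted p was under 0.05 for 3 and 2 of the 6 genes and for 4 and 6 of the 20. Of all probes 6.80% and 0.363% were called there, so that the absence of calls says little of these lists. Scmh1 was called between iHAC2-iPS and iHAC-free cells, 1.04 ± 0.17 lower with iHAC2 (adjusted p = 0.021).

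Of 13 tested antagonists of Polycomb, which place the activating H3K4 methyl mark or remove the repressive marks, 3 were called in iHAC1-iPS against ES cells, where 14.3% of all probes were called. The H3K27 demethylase Kdm6b was higher (1.42 ± 0.23, adjusted p = 0.0016). Ash2l, of the H3K4 methyltransferase complexes, was lower (-1.61 ± 0.28, adjusted p = 0.0022), as was Asxl2 (-1.43 ± 0.27, adjusted p = 0.0034), a partner of the H2A deubiquitinase. The list median was -0.35 log2. No antagonist was called by limma in iHAC2-iPS or iHAC-free cells against ES cells, where 4 in each had an unadjusted p under 0.05. At the shares of all probes called there, 6.80% and 0.363%, this absence says little of the list.

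Genes known as Polycomb targets in ES cells, a list of 20 of which 18 were tested, did not share a direction. In iHAC1-iPS against ES cells 3 were called, near the 14.3% of all probes, with a list median of 0.12 log2, so that the count says nothing of the list and the genes below are single values. The eye and brain regulator Pax6 was higher (2.52 ± 0.53, adjusted p = 0.0063), at -1.54, -1.97, -2.17 and -2.05 in the clones against -4.28 and -4.62 in ES lines. It was also called against iHAC2-iPS and iHAC-free cells (fitted differences of 3.98 ± 0.43 and 3.77 ± 0.43), where 1 of 4 arrays in each group was well above background, so that the sizes rest on dim values. Cdkn2a, the Ink4a/Arf locus that Bmi1 is known to repress, was higher (1.33 ± 0.34, adjusted p = 0.017), with 0.29, 1.07, 0.34 and 0.86 in iHAC1-iPS clones, -1.04 and -0.34 in ES lines and -2.73 in MEFs. It was 0.21, 0.17, -0.88 and -0.72 in iHAC2-iPS clones, 0.08 to 0.18 in iHAC-free lines and 0.19 in 20D17. By quantitative RT-PCR the paper found Ink4a and Arf in iHAC1-iPS cells near the ES level and not raised. Which of these transcripts the array probe reads was not tested. The trophectoderm regulator Cdx2 was lower (-4.64 ± 1.12, adjusted p = 0.013) on a probe well above background on both ES arrays and 2 of the 4 iHAC1-iPS arrays, so that this size rests on dim values, and in iHAC2-iPS cells, where none of the 4 arrays rose well above background, it was at least 9.18-fold below ES cells. The neural gene Lhx5 was called against iHAC2-iPS and iHAC-free cells (4.03 ± 1.15 and 4.22 ± 1.15), with 1-B at -3.82 and the other iHAC1-iPS clones between 0.13 and 0.58, and 2 of 4 arrays well above background in both other groups. Olig2 was called higher against iHAC2-iPS cells (1.27 ± 0.29), as was Tbx5, for which no fold is given because 2 iHAC1-iPS arrays and no iHAC2-iPS array were well above background. Hand1, not well above background in iHAC1-iPS clones, was at least 2.66-fold below iHAC-free cells, of which 3 arrays were.

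Markers of the starting and final cell types are given beside these results. Of 7 tested pluripotent cell markers (Nanog was not matched to a probe), 6 were called in iHAC1-iPS against ES cells, 5 lower and 1 higher, where 14.3% of all probes were called. The mean log2 level over the list was -5.44 in MEFs, 3.21 to 3.62 in ES lines, -2.14 to 0.02 in iHAC1-iPS clones, 1.92 to 3.28 in iHAC2-iPS clones and 3.07 to 3.12 in iHAC-free lines. The higher marker was Pou5f1 (2.80 ± 0.49), the gene of Oct4, and whether its probe also reads the Oct4 of the artificial chromosome was not tested. Of 8 fibroblast markers 4 were called higher in iHAC1-iPS against ES cells, where 7.17% of all probes were called higher. The mean level of the 8 was 4.65 in MEFs, 1.52 to 2.93 in ES lines, 3.83 in 20D17, 3.42 to 4.55 in iHAC1-iPS clones, 1.96 to 4.03 in iHAC2-iPS clones and 3.002 to 3.83 in iHAC-free lines. All iHAC-free lines thus lay above both ES lines, and 2-B1 (4.03) lay within the iHAC1-iPS range. All 8 were well above background on all 16 arrays, ES lines included. Thy1 alone was lower in MEFs (3.66) than in both ES lines (3.98 in B6ES and 5.46 in TT2). Of 14 proliferation genes 1 was called in iHAC1-iPS against ES cells, Mcm3 (-1.04 ± 0.17), where 14.3% of all probes were called. The mean level of the 14 was 3.15 in MEFs, 4.61 to 4.81 in ES lines and 4.37 to 4.52 in iHAC1-iPS clones. The part of these cell types in the Polycomb differences was not tested.

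For the 3 members with the widest range, the genes with the most similar pattern were sought over the 16 arrays among 31387 probes, as a description, since the points share their groups. Nearest to Cbx7 were Acbd7 (r = 0.98), Atf7ip2 (r = 0.98) and Wdr62 (r = 0.98). Nearest to Jarid2 were Rif1, Exosc5 and Ctbp2 (r = 0.98 for each). Bmi1 was followed most closely by C130071C03Rik (r = 0.99), Msl3 (r = 0.98) and Spin4 (r = 0.98). Among the members, Cbx7 ran with Jarid2 (r = 0.94), Suz12 (r = 0.92) and Mtf2 (r = 0.90) and against Bmi1 (r = -0.91), while Rnf2 (r = -0.15) and Cbx2 (r = -0.16) did not follow it.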

How the data were processed

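Total RNA of 16 samples was hybridised by the authors to 1 Agilent single-colour array each and read with Feature Extraction (versions 10.7.1.1 and 10.7.3.1, which define the scan sessions named above). The deposited scanner files hold intensity on a linear scale, with the background subtracted and not scaled between arrays. A table of log2 values that the authors normalised and centred on each probe was an alternative. Probe coordinates are of mm9 as the files give them.

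Control and outlier spots were left out, spots of 1 probe were averaged, and log2 intensity minus the array's 75th percentile was fitted in limma 3.58.1 (R 4.3.3; lmFit, eBayes) with 6 groups over all arrays, with Benjamini-Hochberg adjustment over 31415 probes. The MEF and 20D17 groups of 1 array entered no test. The steps were tested on simulated data. Symbols of 26690 probes came through RefSeq (GRCm38.p6), which also gave the upstream sequences. Members and gene lists were chosen with earlier results of these data known. Named genes were all members, up to 4 called genes of each list and comparison with the largest difference, and the 3 nearest genes of the 3 widest-ranging members. Related CBX and PCGF genes were added after their values were seen, and 1 gene is not reported here.

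iHAC-free lines are paired with the iHAC2-iPS clones they were sorted from, by the study's account. Deviations of a pair from their group means correlated between -0.219 and 0.08 over probes. The alternatives were normexp background correction (offset 50), quantile normalisation, the value table, other filters on dim probes, the slide or line as a block, only the compared groups, 1 probe per gene, and leaving out each array.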

Additional observations from a re-analysis of the deposited data

Results flagged for a closer look

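In groups of 4 clones, 3 member probes and 1 list had a sample far from the other three: 4 of 78 groups, where chance alone marks about 1 in 20. Ezh1 was -4.02 in the iHAC1-iPS clone 1-D6, where the others were -3.16 to -3.03. The brightest Mtf2 probe was 5.08 in the iHAC2-iPS clone 2-N, where the next clone was 3.70. The dimmer Suz12 probe was -0.49 in the iHAC-free line F-E4, where the others were -0.20 to -0.15. The mean level of the Polycomb antagonists was 1.62 in the iHAC1-iPS clone 1-C3, where the others were 1.43 to 1.46.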

How the results depend on the processing

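Of the 37 calls over 114 probes and comparisons, none reversed under any alternative, 20 held under every alternative run and 17 were lost under at least 1. The calls that held throughout include Cbx7, the brighter Bmi1 probe and the brighter Jarid2 probe in each comparison with iHAC1-iPS cells, Ezh1 against iHAC2-iPS and iHAC-free cells, and the spliced Eed probe in iHAC1-iPS against ES cells. 7 differences not called became called under at least 1 alternative. 20 differences not called in either setting changed sign, none over 0.26 log2. The 10 member calls of iHAC1-iPS against ES cells became 6 with the slide as a block, of which 5 were kept and 1, the dimmer Suz12 probe, was newly called, where only 1-D6 shares a slide with the ES lines (blocked differences: Cbx7 -4.82, Bmi1 3.63, Jarid2 -2.42, Eed -1.88), and 4 with 1 probe per gene. The 2 calls of iHAC2-iPS against ES cells became 1 with normexp correction, 0 with only the compared groups and 1 with 1 probe per gene. Of all 31415 probes 2136 were called there in the main fit, 933 with normexp correction and 19 with only the compared groups. With 1 probe per gene 1291 of 21213 were called. The 0 with only the compared groups thus says little of these genes. With 1 probe per gene the 11 calls against iHAC2-iPS cells became 5 of 10 and the 14 against iHAC-free cells 7 of 10, since fewer probes entered. Of all 21213 probes 4293 and 4352 were called in these comparisons, and 3116 in iHAC1-iPS against ES cells. Leaving out 1 array gave 5 to 11 calls for iHAC1-iPS against ES cells (5 without B6ES, 6 without TT2), 0 to 3 for iHAC2-iPS against ES cells (0 without either ES line or 2-B1, 1 without 2-E), 9 to 13 against iHAC2-iPS cells, 13 to 14 against iHAC-free cells and 0 to 1 between iHAC2-iPS and iHAC-free cells (1 without 2-N). Where 1 ES line was left, it was assumed to vary like the other groups. Without either ES line fewer of all probes were called as well, in iHAC1-iPS and in iHAC2-iPS against ES cells. The same held for iHAC1-iPS against ES cells with the slide as a block. Without 2-N 983 of all 31415 probes were called between iHAC2-iPS and iHAC-free cells, and 257 with it. With the line of origin as a replicate block, 0 member probes were called between iHAC2-iPS and iHAC-free cells, as without it. The places between MEFs and ES cells were recomputed under 3 scalings chosen after seeing the data, and 10 of 153 moved by over 1 SD. Only 2 ES lines limit every comparison with ES cells.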
